A study of Homo sapiens with 2 samples.

Results

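The intestinal lineage transcription factors CDX1, CDX2, HNF4A, HNF4G, SOX9, ASCL2 and ELF3 were followed in HCT116, an established line of human colorectal carcinoma cells, with and without knockdown of PHF5A. The members were chosen by gene name, not by a rule on their measured values, but with earlier results of these data known. Each of the 7 names matched 1 of the 50867 gene rows of the deposited table. HCT116 cells were transfected with a control siRNA in 1 group and with an siRNA against PHF5A in the other; PHF5A is a subunit of the SF3b splicing complex. Each group was 1 library of total RNA, with totals of 26552789 counts (control) and 25897412 counts (knockdown). No test across samples was possible, so no p-value is given, and the 95% exact intervals beside values cover counting error only.

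Caudal homeobox proteins (CDX1 and CDX2) specify the hindgut and are kept on in the intestinal epithelium, where CDX2 is a widely used diagnostic marker of colorectal origin. HNF4A and HNF4G are nuclear receptors that act with CDX2 on genes of the absorptive enterocyte. SOX9, an HMG-box protein, and ASCL2, a basic helix-loop-helix protein, belong to the crypt base, where stem cells lie and Wnt signalling is high. ELF3 is an ETS protein of simple epithelia that takes part in enterocyte and goblet cell maturation.

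PHF5A counted 367 in the control and 91 after knockdown, 3.93-fold lower by CPM, counts scaled to the library total (interval 3.12 to 5.0). All 13 epithelial markers, among them EPCAM and KRT19, reached 1 FPKM (fragments per kilobase per unit of library size) in at least 1 library. Heart muscle transcripts set the libraries apart. The 23 heart muscle markers summed to 3846 CPM in the control library but 13.3 CPM after knockdown, where 17 of the 23 had 3 counts or fewer. MYH7, the heart's slow myosin heavy chain, had 10058 and 0 counts. The 10 fibroblast markers summed to 109 and 33.9 CPM. Hepatocyte markers (98 and 94.1 CPM) and blood markers (20.9 and 15.5 CPM) moved less. Hepatocyte transcripts were counted in both libraries, with ALB, the albumin gene, at 1243 and 1176 counts (6.07 and 5.89 FPKM). Heart muscle transcripts at this level are not what the label of the control, HCT116 cells alone, describes. Whether RNA of other cells entered the control sample, or either sample in the case of the hepatocyte markers, was not tested. Neither was the part of such RNA in the levels and differences below. Each control value below is that of this 1 library.

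Only 3 of the 7 factors, CDX2, SOX9 and ELF3, reached 1 FPKM in the higher library, and all 3 had lower counts and FPKM after knockdown. CDX2 differed the most and ELF3 the least. HNF4A was low and nearly level between the libraries, HNF4G and ASCL2 had 7 counts or fewer, and CDX1 had none. In bulk RNA, fewer cells expressing a factor and less RNA per cell cannot be told apart.

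**Figure D1:**
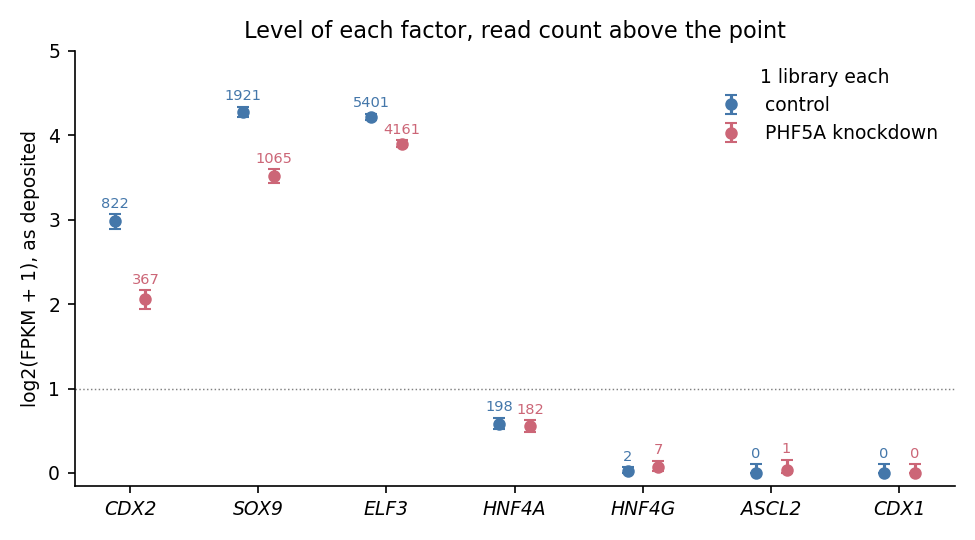
Level of each factor as log2(FPKM + 1) in the control (blue) and PHF5A knockdown (red) library, with the read count above each point and 95% counting intervals as bars; the dotted line is 1 FPKM. CDX2, SOX9 and ELF3 lie above the line in both libraries and are lower after knockdown, and the other 4 factors lie below it.

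CDX2 (ENSG00000165556, chromosome 13, 27962137 to 27971139, GRCh38, minus strand) was counted 822 times in the control and 367 times after knockdown. Its deposited FPKM was 6.90 (interval 6.43 to 7.39) and 3.16 (2.84 to 3.50). By CPM it was 2.18-fold lower (1.93 to 2.48), and the interval includes 2-fold. On the scale of log2(FPKM + 1), which understates the change of low genes, the ratio of knockdown to control was -0.93. Calls were made at 2-fold on that scale, so CDX2 fell short of a call that its CPM ratio would have met.

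The start of CDX2 is shown because it was the factor with the largest difference. The 250 bases before the RefSeq start (GRCh38.p14, chr13:27969316-27969565, minus strand) read 5′ to 3′ as follows. Capitals mark matches, on either strand, to any of 6 motifs: the TATA box TATAAA, the CCAAT box CCAAT, the GC box GGGCGG, the core TTTAT bound by CDX proteins, the E-box CANNTG bound by helix-loop-helix proteins such as ASCL2, and the ETS core CGGAA.
CDX2: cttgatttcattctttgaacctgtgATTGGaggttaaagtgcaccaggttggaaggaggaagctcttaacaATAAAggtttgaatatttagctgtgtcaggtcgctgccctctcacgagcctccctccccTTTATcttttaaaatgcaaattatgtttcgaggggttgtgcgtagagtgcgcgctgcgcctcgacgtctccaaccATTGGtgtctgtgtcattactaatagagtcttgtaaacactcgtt
This window held 2 CCAAT boxes in reverse, which begin 225 and 45 bases before the start, and 2 CDX cores, at 120 bases and, in reverse, at 179 bases. Its GC content was 45.2%, against a median of 58% over 35116 RefSeq promoter windows of that length, and 10 CpG pairs against a median of 11. A CDX core occurred in 32.7% of all windows and a CCAAT box in 32%. A match is a run of letters, not a measured binding site.

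SOX9 (ENSG00000125398, chromosome 17, 72121020 to 72126420, plus strand) gave 1921 control counts and 1065 knockdown counts. Its FPKM was 18.4 (interval 17.6 to 19.2) and 10.4 (9.83 to 11.1). The knockdown library was thus lower, by 1.76-fold on the CPM scale (1.63 to 1.90) and by a log2(FPKM + 1) ratio of -0.76. SOX9-AS1, an antisense RNA whose entry spans the gene, had 30 and 15 counts, 1.95-fold lower by CPM (1.02 to 3.90). The library kit keeps strand, but whether the counting used strand is unknown here, so reads of a gene and its antisense partner may be mixed. The SOX9-AS1 counts were few beside those of SOX9.

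ELF3 (ENSG00000163435, chromosome 1, 202007945 to 202017188, plus strand) held the most counts of the 7 factors, 5401 without and 4161 with knockdown. Its FPKM was 17.6 (interval 17.1 to 18.1) and 13.9 (13.5 to 14.3). The CPM was 1.27-fold lower after knockdown (1.22 to 1.32), a log2(FPKM + 1) ratio of -0.32. A pair of noncoding entries overlap ELF3, with unlike ratios. RP11-465N4.4, antisense at the 5′ end of the gene, had 76 and 27 counts, 2.75-fold lower (1.75 to 4.43). RP11-510N19.5, on the same strand, had 82 and 101 counts, a CPM ratio of 1.26 (0.934 to 1.71) whose interval includes 1. Its annotated type is sense intronic, but its span (202011370 to 202015657) is too long for 1 intron of ELF3. Whether its counts include reads of ELF3 was not tested.

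The ELF3 start is shown because the antisense entry begins within the window before it. RP11-465N4.4 is on the minus strand and runs from 202010353 down to 202000094, away from the RefSeq start of ELF3. Its own 5′ end thus lies 234 bases before that start. It shares 17 bases with the window (GRCh38.p14, chr1:202010337-202010586, plus strand). Capitals are as for CDX2.
ELF3: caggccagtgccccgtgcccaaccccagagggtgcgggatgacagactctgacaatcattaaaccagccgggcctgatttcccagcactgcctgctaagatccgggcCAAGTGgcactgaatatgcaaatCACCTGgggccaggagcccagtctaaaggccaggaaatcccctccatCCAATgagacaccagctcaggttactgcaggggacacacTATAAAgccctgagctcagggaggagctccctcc
The window held a TATA box at 34 bases before the start, a CCAAT box at 73 bases, and E-boxes at 143 and 120 bases. The TATA box contains a CDX core in reverse, at 33 bases. A TATA box occurred in 10.7% of all windows, and an E-box in 61.8%. The GC content was 58.4%, with 4 CpG pairs.

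HNF4A (ENSG00000101076, chromosome 20, 44355700 to 44434596, plus strand) was low, at 198 control counts and 182 knockdown counts. Its FPKM was 0.499 (interval 0.432 to 0.574) and 0.471 (0.405 to 0.544). The CPM ratio of knockdown to control was 0.942, with an interval of 0.766 to 1.16. Counting error alone thus allows a level up to 1.30-fold lower or 1.16-fold higher. Its 2 overlapping antisense entries held 3 counts in all over both libraries, HNF4A-AS1 with 2 and 0 and RP5-881L22.6 with 0 and 1.

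HNF4A transcripts start at 2 separate promoters, and the table gives 1 sum for both, so which start gave these counts was not analysed here. The 2 windows are shown for comparison, upstream (GRCh38.p14, chr20:44355449-44355698, plus strand) and downstream (chr20:44400989-44401238, plus strand).
HNF4A upstream start: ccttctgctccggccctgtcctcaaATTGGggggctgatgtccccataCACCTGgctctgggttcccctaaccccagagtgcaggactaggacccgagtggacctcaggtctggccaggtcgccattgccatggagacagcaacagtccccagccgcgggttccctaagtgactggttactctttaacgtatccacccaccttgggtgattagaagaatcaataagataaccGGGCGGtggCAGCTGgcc
HNF4A downstream start: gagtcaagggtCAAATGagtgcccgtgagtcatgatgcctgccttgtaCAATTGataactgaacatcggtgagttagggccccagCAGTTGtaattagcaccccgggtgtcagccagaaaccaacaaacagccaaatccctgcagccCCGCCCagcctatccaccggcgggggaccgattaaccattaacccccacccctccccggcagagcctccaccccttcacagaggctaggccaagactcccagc
Each held a GC box, at 18 bases before the upstream start and, in reverse, at 103 bases before the downstream one. The upstream window had 2 E-boxes and a CCAAT box in reverse, and the downstream window 3 E-boxes and no CCAAT box. Neither held a TATA box or a CDX core. A GC box occurred in 42.6% of all windows and an ETS core, which none of the 4 windows shown held, in 30.3%. RefSeq windows in the reference table matched 3 of the 7 factors.

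HNF4G (ENSG00000164749, chromosome 8, 75407914 to 75566843, plus strand), the paralog of HNF4A, had 2 control counts and 7 knockdown counts. Its FPKM was 0.0144 and 0.0515, and the CPM ratio was 3.59 with an interval of 0.683 to 35.4. A difference was not detectable at this depth. ASCL2 (ENSG00000183734, chromosome 11, 2268495 to 2270952, minus strand) had 0 and 1 counts. In the control library, 0 counts allow up to 3, which is 0.061 FPKM for ASCL2. CDX1 (ENSG00000113722, chromosome 5, 150166795 to 150184558, plus strand) had 0 counts in both libraries, which allows 0.0604 FPKM (control) and 0.0619 FPKM (knockdown). No ratio is given for ASCL2 or CDX1.

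The spacing between the 3 expressed factors exceeded counting error. The CPM ratio of CDX2 was 0.58 times that of ELF3 (interval 0.508 to 0.661) and 0.805 times that of SOX9 (0.695 to 0.932). The ratio of SOX9 was 0.72 times that of ELF3 (0.66 to 0.784). Against HNF4A, the ratio of CDX2 was 0.486 times as high (0.381 to 0.62) and that of SOX9 0.603 times (0.484 to 0.752). The order from most to least reduced was therefore CDX2, SOX9, ELF3 and HNF4A, with ELF3 and HNF4A overlapping in their intervals. How far cultures of HCT116 differ in these ratios was not measured, since each group was 1 library.

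**Figure D2:**
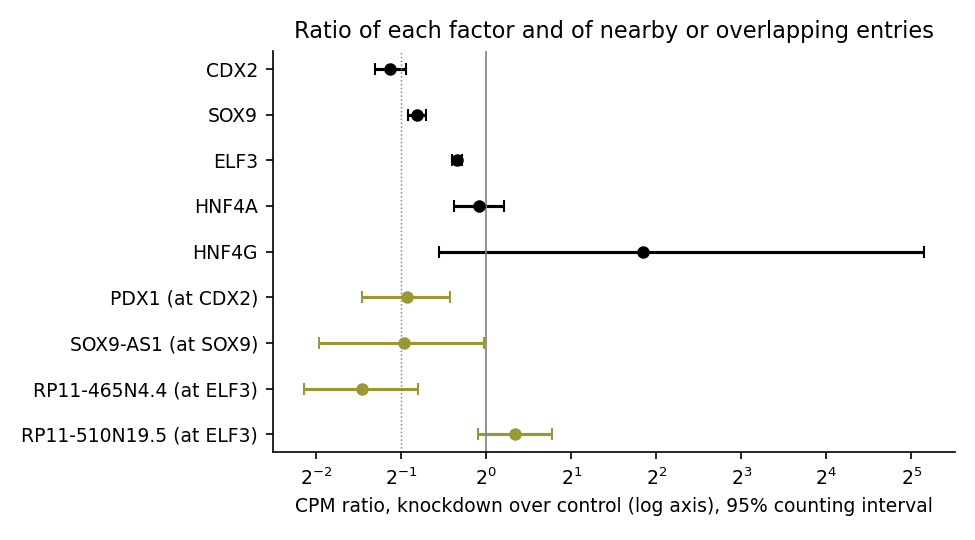
CPM ratio of knockdown to control on a log axis with 95% counting intervals, for the 5 factors with more than 3 counts in a library (black) and for PDX1, the homeobox gene next to CDX2, and entries overlapping SOX9 or ELF3 (olive); lines mark a ratio of 1 and of 2-fold lower. CDX2, SOX9 and ELF3 lie left of 1 with narrow intervals, and the HNF4G interval spans 0.683 to 35.4.

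The levels of the factors relative to each other depended on the gene length behind the FPKM. For 88.9% of 24304 genes with counts, the length implied by the deposited values was within 1% of the summed lengths of all distinct annotated exons, with overlapping exons each counted in full. The length of the merged exons, which counts each base once, matched for 30.5%. The implied length was 2.04 times the merged one for HNF4A, 1.61 times for ELF3 and 1.09 times for CDX2, and for SOX9 the 2 lengths were alike (3935 bases). SOX9 was an exception to the summing of distinct exons, which in GENCODE release 29 come to 4725 bases and would give 15.3 and 8.70 FPKM. Ratios between libraries are not touched by this, apart from the pseudocount and the filter.

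As deposited, SOX9 was the highest factor in the control library at 18.4 FPKM, with ELF3 at 17.6, and their intervals overlapped. That order rests on the SOX9 length, since the summed exons used for ELF3 would put SOX9 at 15.3 FPKM, below ELF3. Per merged exon length, ELF3 was highest, with 28.3 FPKM (27.5 to 29.1) against 18.4 (17.6 to 19.2) for SOX9. In the knockdown library ELF3 led on both scales, with 13.9 against 10.4 FPKM as deposited and 22.3 against 10.5 per merged length. CDX2 came next on both scales, with 7.51 and 3.44 FPKM per merged length, and then HNF4A. Its merged-length level was 1.02 FPKM (0.883 to 1.17) without and 0.961 (0.827 to 1.11) with knockdown, which puts it at the 1 FPKM limit instead of well below it. HNF4G, ASCL2 and CDX1 were not separable from each other in the control library, where their counts were 2, 0 and 0.

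**Figure D3:**
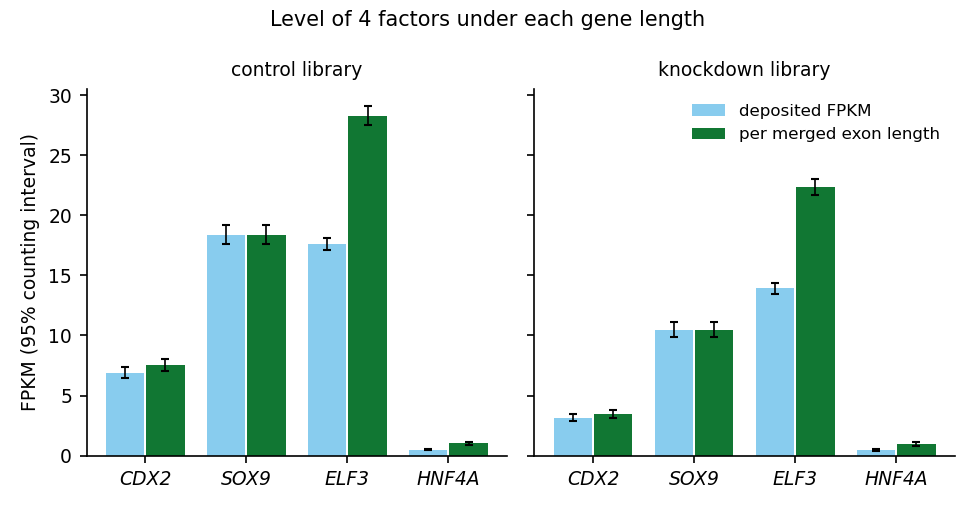
FPKM of CDX2, SOX9, ELF3 and HNF4A in each library, as deposited (light blue) and per merged exon length (green), with 95% counting intervals. Counting overlapping exons once puts ELF3 at 28.3 in place of 17.6 FPKM in the control library, above SOX9, whose bars stay at 18.4.

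Over the 8957 expressed genes (1 FPKM or more in either library), 555 (6.2%) were at least 2-fold lower on the log2(FPKM + 1) scale and 227 (2.53%) at least 2-fold higher. Of the 3 expressed factors, 0 were called lower and 0 higher. By CPM ratio without a pseudocount, 13.9% of the expressed genes were at least 2-fold lower, CDX2 among them, and 5.72% at least 2-fold higher. The intervals of all 3 factors lay below a ratio of 1, as did those of 50.7% of the expressed genes, while 28.4% lay above it, so an interval on 1 side of 1 is common at this depth. The median log2(FPKM + 1) ratio of the 3 factors was -0.76, beside -0.15 for all expressed genes and -0.06 for the 398 expressed genes annotated as sequence-specific DNA-binding transcription factors. CDX2 lay 0.78 below the median of the expressed genes on the log2 scale, SOX9 0.61 below it and ELF3 0.17 below it.

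Read singly against other genes, 7.61% of the expressed genes had a lower log2 ratio than CDX2, 11.8% a lower one than SOX9 and 35.5% a lower one than ELF3. Among the 398 expressed transcription factors these shares were 6.78%, 10.1% and 28.6%. Of those 398 factors, 23 (5.78%) were at least 2-fold lower and 18 (4.52%) at least 2-fold higher. By deposited FPKM, CDX2 ranked 126 among them in the control and 210 after knockdown. SOX9 ranked 39 and 73, and ELF3 ranked 41 and 52.

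**Figure D4:**
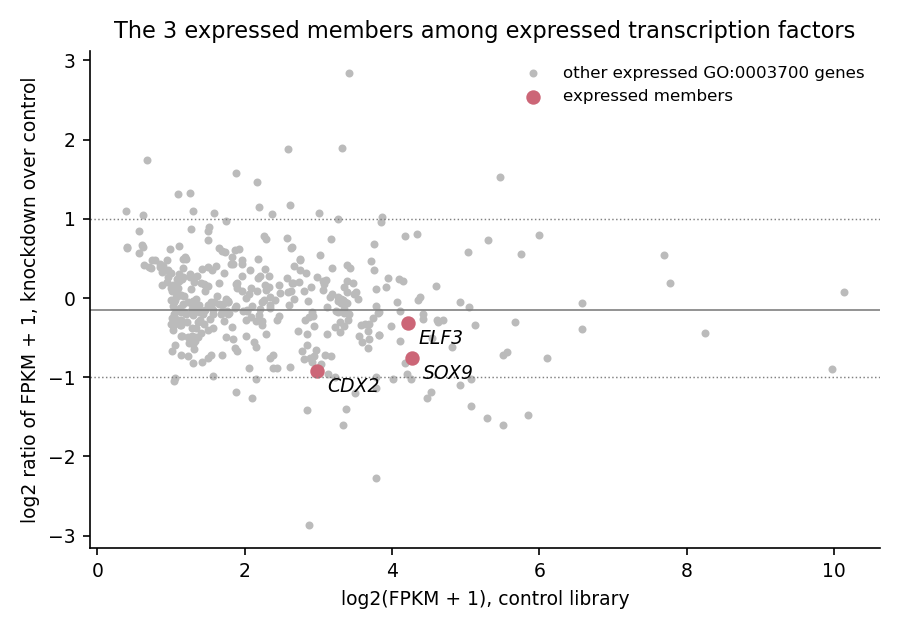
Log2 ratio of FPKM + 1 (knockdown over control) against log2(FPKM + 1) in the control library for the 398 expressed genes annotated as sequence-specific transcription factors (grey) and the 3 expressed members (red); the solid line is the median of all expressed genes (-0.15) and dotted lines mark 2-fold. CDX2 (-0.93) and SOX9 (-0.76) lie near the lower dotted line without crossing it.

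All 7 factors shared 46 of the 824 gene ontology terms that any of them carried in the deposited table, the transcription factor term among them. Outside those terms they differed in structure. By GENCODE release 29, ASCL2 has 2 merged exons, SOX9 and CDX1 have 3, CDX2 has 4, ELF3 has 6, HNF4A has 13 and HNF4G has 16. CDX2 and SOX9, the 2 expressed factors with the larger reduction, have fewer merged exons than ELF3. Merged exons pool all transcripts of a gene, and a link between exon number and reduction was not tested. The protein-coding genes closest to CDX2 in log2(FPKM + 1) over the 2 libraries were BCAR3 (6.88 and 3.20 FPKM) and ALG12 (6.81 and 3.17). For SOX9 they were AXL (18.4 and 10.5) and WDR77 (18.7 and 10.5), and for ELF3 MRPS21 (17.4 and 14.01) and RTEL1-TNFRSF6B, a read-through gene that shares exons with its neighbours (17.4 and 14.1). Each was within 0.03 log2 units, and 5 or 6 protein-coding genes lay within 0.05 of each factor.

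The closest relatives of CDX2 sat in a largely silent family. Of 6 ParaHox genes, the homeobox genes that CDX1, CDX2 and CDX4 form with PDX1, GSX1 and GSX2, 4 had 0 counts in both libraries. PDX1, a pancreatic and duodenal homeobox factor, lies 35905 bases from CDX2 on chromosome 13 (27920020 to 27926231) and was the other one counted. It had 96 and 49 counts, 1.45 and 0.756 FPKM, and was 1.91-fold lower by CPM (interval 1.34 to 2.75). Within 100 kb of CDX2 it was the only one of 8 other entries to reach 1 FPKM, and 5 of the 8 had no counts. PDX1 passed the 1 FPKM filter through the control library alone. The intervals of CDX2 and PDX1 overlapped, and both lay below a ratio of 1, where 50.7% of the expressed genes had theirs. A link between the 2 genes was not tested.

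Families of the remaining factors, drawn up after the values were seen, gave a mixed picture. Over all expressed genes, 6.2% were called lower and 2.53% higher. Intervals lay below a ratio of 1 for 50.7% of the expressed genes and above it for 28.4%. Of 19 SOX genes 6 were expressed, with a median log2(FPKM + 1) ratio of -0.40, and 0 were called in either direction. The intervals of 5 lay below a ratio of 1: SOX18 (4.44 and 1.95 FPKM), SOX9, SOX4 (3.87 and 2.54), SOX13 (3.71 and 2.73) and SOX12 (13.2 and 11.6). Of 27 ETS genes 11 were expressed, with a median of 0.01 and 0 called. Lower ratios than that of ELF3 were those of ETS2 (6.71 and 3.66 FPKM), ETV6 and ETV5, while ETV4 (19.8 and 20.0) and ELF4 (9.46 and 9.02) had intervals that include 1. The intervals of ELK1 (23.2 and 25.9 FPKM), ELK4 (0.65 and 1.14) and ETV3 (1.84 and 2.74) lay above 1. ELK4 passed the filter through the knockdown library alone, and ETV6 through the control library alone. Over the 9 ETS genes expressed in both libraries, the intervals of 3 lay below 1 and those of 2 above it. Of 48 nuclear receptors 16 were expressed, with a median of 0.01, or -0.04 over the 15 expressed in both libraries. NR1H2, the oxysterol receptor LXR beta, was called higher, with 7.02 and 15.9 FPKM, and 0 were called lower, though PPARD (12.8 and 5.93) had a log2 ratio of -0.99. Of 5 ASCL genes none was expressed, and ASCL5 had the most counts (29 and 19).

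Among 40 other transcription factors of the intestine, 12 were expressed, with a median log2(FPKM + 1) ratio of -0.47, or -0.27 over the 8 expressed in both libraries. Called lower were 2, HES1 and GATA4, and 0 were called higher, beside 6.2% and 2.53% of all expressed genes. HES1, a Notch target that favours absorptive fate, had 3.46 and 1.19 FPKM and was 2.90-fold lower by CPM (interval 2.24 to 3.79). GATA4, a factor of the small intestine and also a heart muscle marker, had 336 and 0 counts. With 3 knockdown counts, the limit that 0 allows, GATA4 would be 109-fold lower after knockdown. The near end of its interval, which also covers counting error in the control, was 88.3-fold lower. GATA4 passed the filter through the control library alone and went with the other heart muscle markers. KLF4, a goblet cell factor, had 1.92 and 0.778 FPKM, and PPARG, a colonocyte nuclear receptor, had 2.73 and 1.35. GRHL2, an epithelial factor, went the other way with 0.541 and 1.40 FPKM, a CPM ratio of 2.59 (2.06 to 3.28) that its low level kept short of a call on the FPKM + 1 scale. ATOH1 and NEUROG3, which set secretory and endocrine fates, had 0 counts in both libraries.

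Genes that CDX2 is known to act on were nearly silent in both libraries. Of 17 such targets none reached 1 FPKM as deposited and 9 had 0 counts in both libraries, among them CDH17, SI, GUCY2C and KRT20. In the control library the highest was HEPH, an iron oxidase of the enterocyte, with 0.974 FPKM, and in the knockdown library it was DSC2, a desmosomal cadherin, with 0.48. HEPH had 324 and 7 counts (a CPM ratio of 0.0222, interval 0.0088 to 0.0462). It was nearly absent after knockdown, as were most of the 23 heart muscle markers, and whether its control counts came from HCT116 cells was not tested. DSC2 had 205 and 183 counts. HNF4A is itself on that list and, per merged exon length, was at 1.02 FPKM in the control library. Of 20 HNF4A targets 4 were expressed, 2 of them in both libraries, and 0 called. Calls over all expressed genes were 6.2% lower and 2.53% higher. CLDN7, a tight junction claudin, had 16.8 and 19.9 FPKM, and ACOX2, a peroxisomal oxidase, had 2.94 and 1.57. The lipoprotein genes APOA1 (1.11 and 0.989) and APOH (0.976 and 1.12) were low in both. APOA1 is also a hepatocyte marker, and whether its counts came from HCT116 cells was not tested.

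Of 30 markers of differentiated intestinal cells only LGALS3 and CA2 reached 1 FPKM, and 14 had 0 counts in both libraries. LGALS3, which encodes galectin-3, had 13.1 and 6.76 FPKM and was 1.94-fold lower by CPM (interval 1.77 to 2.12). CA2, a carbonic anhydrase of colonocytes, had 1.17 and 0.644 FPKM, 1.82-fold lower (1.28 to 2.61). Neither was called on the FPKM + 1 scale, and CA2 passed the filter through the control library alone. Over all expressed genes, intervals lay below a ratio of 1 for 50.7% and above it for 28.4%. These shares were not computed over all genes with more than 3 counts. Of the 13 markers with more than 3 counts in a library, the intervals of 5 lay below a ratio of 1 and those of 3 above it. The latter were DPP4, a brush border peptidase, with 4 and 26 counts (ratio 6.66, interval 2.31 to 26.3), REG4, a secreted lectin, with 4 and 16 (4.1, 1.32 to 16.9), and CEACAM5, the carcinoembryonic antigen, with 0 and 6. MUC13, a membrane mucin, had 33 and 0 counts. VIL1, the brush border villin, had 0 and 1 counts.

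Crypt and Wnt genes, the setting in which SOX9 and ASCL2 are known to act, went both ways. Of 20 such genes 11 were expressed and 0 called in either direction, beside 6.2% lower and 2.53% higher of all expressed genes. SP5, BMI1 and NKD1 passed the 1 FPKM filter through the knockdown library alone. The median log2(FPKM + 1) ratio was 0.11 with these 3 and -0.08 over the 8 genes expressed in both libraries. Of the 17 genes with more than 3 counts in a library, the intervals of 5 lay below a ratio of 1 and those of 5 above it. Over all expressed genes, a set with a higher floor, these shares were 50.7% and 28.4%. The shares over all genes with more than 3 counts were not computed. CDK6, a G1 kinase, had 2.63 and 1.31 FPKM, with a CPM ratio of 0.496 (0.443 to 0.555) beside 0.568 for SOX9. ZNRF3, a Wnt receptor antagonist, had 1.96 and 1.30 FPKM, and CD44, a surface glycoprotein, had 4.89 and 3.63. Below 1 FPKM, LRIG1 had 154 and 44 counts and TNFRSF19 had 64 and 0. MSI1, an RNA-binding protein of stem cells, had 12.6 and 18.8 FPKM, and SP5, a direct Wnt target, had 0.296 and 1.06. LGR5, the stem cell receptor, had 0 and 1 counts, and OLFM4 and SMOC2 had none.

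The 13 epithelial markers had a median log2(FPKM + 1) ratio of 0.19 with 0 called, or 0.1 over the 12 expressed in both libraries. KRT19, a keratin of simple epithelia, had 1046 and 1032 FPKM, EPCAM had 3.62 and 4.52, and ST14, a surface protease, had 93.0 and 114. ESRP2, an epithelial splicing regulator, had 3.84 and 5.76, while its paralog ESRP1 had 1.58 and 1.15 (ratio 0.727, 0.628 to 0.842). KRT8, another simple keratin, had 420 and 370 FPKM, and CLDN4, a claudin, had 1.80 and 1.53, both with intervals below 1. Of the 13 epithelial markers, 7 had intervals above a ratio of 1 and 4 below it. Over all expressed genes these shares were 28.4% and 50.7%, and 6.2% were called lower and 2.53% higher. GRHL2, 1 of the 7, passed the filter through the knockdown library alone. Over the 12 markers expressed in both libraries the counts were 6 and 4.

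**Figure D5:**
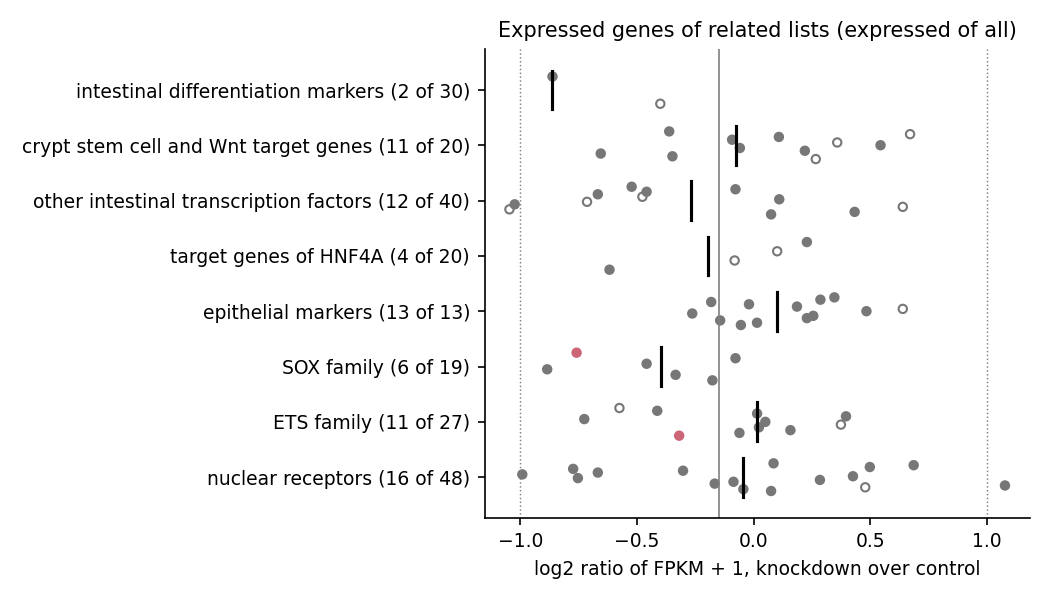
Log2 ratio of FPKM + 1 (knockdown over control) for the expressed genes of each related list, filled where both libraries reach 1 FPKM and open where only 1 does, with members in red; black bars are medians of the filled points, the grey line is the median of all expressed genes (-0.15) and dotted lines mark 2-fold. Crypt genes (-0.08) and epithelial markers (0.1) lie on both sides of the grey line. The open points of the crypt list passed the filter through the knockdown library alone, which by itself places them to its right.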

How the data were processed

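Reads were aligned and quantified by the authors with HISAT2 2.0.4 and Cuffdiff on hg38 (GRCh38), per the submitters' processing notes. Libraries were made from Trizol-extracted total RNA with a stranded kit, per the labels' protocols. Not given in the sources used here were the annotation release, whether counting used strand, and how multiply mapped reads were handled. For every gene the deposited table lists counts (whole numbers) and FPKM of each library, per the file headers. Of its 50869 lines, 2 hold 1 broken entry and were left out. GENCODE release 29 gave gene type, strand and exons for 50110 of 50867 rows.

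The log2 ratio used FPKM as deposited plus 1. A gene was expressed at 1 FPKM or more in the higher library and called at 2-fold. CPM ratios carry 95% exact conditional binomial intervals and FPKM levels exact Poisson ones, and reads are not independent molecules. Per-length levels were recomputed from counts and merged exons. Promoter letters are RefSeq's (GRCh38.p14). The members, lists and alternatives were chosen with earlier results of these data known, and the families after the values were seen. Besides the members and PHF5A, the rule for naming took, from each list, at most the 4 expressed genes farthest from 0 in log2 ratio, and the 2 protein-coding genes nearest to each expressed member. PDX1, HEPH, DSC2, GRHL2 beside other factors, CD44, LRIG1, TNFRSF19, BMI1, NKD1, DPP4, REG4, CEACAM5, MUC13, ESRP1, KRT8, CLDN4, EPCAM, KRT19, family members and genes at 0 were named after their values were seen. Alternatives were other pseudocounts, filters, thresholds and scalings, and the merged exon length, which was added later. The calls and intervals were tested on simulated data. Scripts ran under Python 3.11.15 (matplotlib 3.10.9, scipy 1.17.1, pandas 2.3.3, numpy 2.4.6). The values of 1 gene that the rule for naming took are not reported here.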

Additional observations from a re-analysis of the deposited data

How the results depend on the processing

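No paired analysis was possible because each group held 1 library. As reported, 0 members and 555 genes were at least 2-fold lower, and 0 members and 227 genes at least 2-fold higher. Members called lower were 1 (CDX2) with a pseudocount of 0.1 or 0.5 and with CPM and a prior of 0.5, and 2 (CDX2 and SOX9) with rescaling to TPM or a 1.5-fold threshold. No alternative that was run called a member higher. Of the 8957 expressed genes, 1129 were lower and 469 higher with a pseudocount of 0.1, and 825 and 326 with 0.5. Once centred on the median, 358 were lower and 345 higher. The numbers were 1239 and 505 with CPM and 1631 and 757 at 1.5-fold. Other settings changed how many genes were expressed. Lower and higher were 309 and 131 of 4043 when 5 FPKM was required. They were 367 and 441 of 9316 with upper-quartile scaling, and 1405 and 107 of 9664 with TPM. Protein-coding genes alone gave 450 lower and 148 higher of 7677. Library totals without the abundant RN7SL, RN7SK, RPPH1 and RMRP entries gave 510 lower and 392 higher of 9937. These entries held 17.4% of the control and 26.1% of the knockdown counts. Over the 8 alternatives for single genes, the log2 ratio ran from -1.29 to -0.71 for CDX2, from -1.16 to -0.50 for SOX9 and from -0.72 to -0.06 for ELF3. That of HNF4A ran from -0.18 to 0.12 and was above 0 in 3 of them. The scalings moved the median of the expressed genes from -0.15 to between -0.47 (TPM) and 0.09 (upper quartile). Relative to each median, CDX2 stayed 0.77 to 0.93 below on the log2 scale, SOX9 0.59 to 0.69 and ELF3 0.14 to 0.25. Depth limits HNF4G, ASCL2 and CDX1, and with 1 library per group no difference has a replicate check.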
